A study of Homo sapiens with 37 samples.

Results

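The genes described here are the phosphoglucomutases PGM1, PGM2, PGM2L1 and PGM3 and the enzymes around them in hexosamine metabolism, GFPT1, GNPNAT1, UAP1, UGP2 and OGT. These 9 genes were chosen by name out of the 32055 genes of the table, each by the row whose Ensembl identifier carries that symbol. K562, an established human leukemia cell line, was used throughout. In it the transcription factor ZBTB7A was disrupted by electroporation of a Cas9 and GFP plasmid (px458) carrying either of 2 gRNAs. Control cells received the plasmid without a gRNA. Single GFP-positive cells were sorted and grown up, so each KO or Control culture descends from 1 cell. There were 26 libraries labelled KO and 11 labelled Control, both of K562 with no other treatment named. The labels give each library a 6-base barcode and a group and do not say which clone or gRNA it came from.

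Phosphoglucomutases move a phosphate between positions of a hexose. PGM1 interconverts glucose 1-phosphate and glucose 6-phosphate and so joins glycogen and UDP-glucose to glycolysis, PGM2 acts mainly on ribose and deoxyribose phosphates, PGM2L1 makes glucose 1,6-bisphosphate, the cofactor of these enzymes, and PGM3 acts on N-acetylglucosamine phosphates. They are a different family from the phosphoglycerate mutases of lower glycolysis, whose symbols begin with PGAM. In the hexosamine pathway GFPT1 makes glucosamine 6-phosphate from fructose 6-phosphate and glutamine, GNPNAT1 acetylates it, PGM3 moves its phosphate and UAP1 joins it to UDP. The product, UDP-N-acetylglucosamine (UDP-GlcNAc), is the sugar donor of OGT, which sets O-GlcNAc on nuclear and cytoplasmic proteins, and of many enzymes that build glycans in the secretory pathway.

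RNA from 10000 cells per library was measured by bulk SCRB-seq, a 3′-end method that starts cDNA at the poly(A) tail and counts unique molecular identifiers (UMIs). A count is therefore a number of captured molecules that does not grow with transcript length. Totals ranged from 1070250 to 4270901 UMIs in KO libraries (median 2030965) and from 563235 to 4710809 in Control libraries (median 3518944). The barcodes were GC-rich in 12 KO and 1 Control library and AT-rich in 12 and 8. Levels are given as log2 CPM, UMI counts scaled to the library total (CPM) after TMM, with a prior count of 2. ZBTB7A itself had a level of 5.95 ± 0.26 log2 CPM in KO and 5.82 ± 0.29 in Control libraries (SD, n = 26 and 11; adjusted p = 0.331, edgeR with Benjamini-Hochberg adjustment), but the 3′ tag does not read an edit in the coding sequence and checks no label. Of the erythroid markers, 13 were measured, and their summed level was 4280 to 9206 CPM in Control and 3125 to 9951 CPM in KO libraries. Of these 13, 7 passed an adjusted p of 0.05, where 33.8% of all genes tested did. The 3 that rose, beside 17.7% of all genes, were EPOR, ALAS2 and TAL1, with log2 fold changes of 0.97, 1.41 and 0.39. The 4 that fell, beside 16.2%, were NFE2, TFRC, KLF1 and GATA1, with -0.52, -0.37, -0.22 and -0.19. EPOR was above the highest Control library in 22 of 26 KO libraries and NFE2 below the lowest in 25. CD3E, CD2, CD5, CD8A, CD79A, PAX5, CD14, COL1A2, DCN and LUM, defining markers of T cells, B cells, monocytes and fibroblasts, each had under 50 UMIs in all libraries together. Of the other markers, CD3D, CD33 and EPCAM fell and ITGAM and KRT8 rose in KO, and the summed T cell list, led by CD3D, was 15.2 to 72.3 CPM in Control and 0.698 to 29.3 CPM in KO libraries. The part of these genes in the results below was not tested.

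The libraries fell into 7 expression groups when clustered on 1000 variable genes that are neither among the 9 genes nor in any list used here. Control libraries made up groups C1 (6 libraries) and C2 (5 libraries), and KO libraries made up K1 (4), K2 (6), K3 (6), K4 (5) and K5 (4). The KO-labelled library with barcode GGCCAC clustered in C2, with Control libraries, and is named as the library labelled KO wherever it sets a value. Libraries of 1 expression group resembled each other more than other libraries. The p-values below measure the spread between libraries, which may not be independent cultures. If libraries of 1 expression group come from 1 clone, these p-values are too small. The tests count libraries and not clones, which the labels do not give. The expression groups were found from the data and are described with no test.

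Between KO and Control, 4 of the 9 genes rose, 2 fell, 2 did not pass the test and PGM1 did not pass the filter on low counts. The risen genes were PGM2, PGM2L1, PGM3 and GFPT1, at 1.30 to 1.46 times the Control level, and the fallen genes were GNPNAT1 and UAP1, at 0.824 and 0.842 times. Along the chain to UDP-GlcNAc the direction alternated: GFPT1 was higher in KO, GNPNAT1 lower, PGM3 higher and UAP1 lower. The calls of GFPT1 and GNPNAT1 were lost in 6 and 14 of 55 alternatives, so the alternation is not stable. Median GFPT1 was 6.96 and 6.95 log2 CPM in K4 and K5 but 6.13 to 6.21 in K1, K2 and K3, beside 6.10 in C2. Median GNPNAT1 in K1 and K3 (4.68 and 4.64) lay between C2 (4.49) and C1 (4.89). These C2 medians leave out the library labelled KO. Of the 8 tested genes 6 passed an adjusted p of 0.05, where 33.8% of all 10661 genes tested did. The 4 that rose stand beside 17.7% of all genes and the 2 that fell beside 16.2%. PGM2L1 alone also passed an absolute log2 fold change of 0.5, as 10.2% of all genes did, and fell below that size under limma-voom, without the Control library TTAATC and without expression group C1, K2 or K5. The median log2 fold change of the 8 genes was 0.24 against -0.0046 over all genes tested. The genes were chosen with earlier results of these libraries known, so these shares describe the genes and test nothing about them as a group. In bulk RNA fewer cells with a transcript and less of it per cell cannot be told apart.

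Within the AT-rich barcodes (12 KO and 8 Control libraries) the log2 fold changes were 0.43 for PGM2, 0.51 for PGM2L1, 0.47 for PGM3, -0.39 for GNPNAT1 and -0.28 for UAP1, all of which passed there, and 0.22 for GFPT1, which did not. The GC-rich barcodes hold 1 Control library and gave no value of their own. Without the library labelled KO with barcode GGCCAC the same 6 genes passed. The shallowest library, Control GTTTAT with 563235 UMIs, was the highest Control library for PGM2, PGM3, GNPNAT1 and UGP2 and the lowest for PGM2L1 and GFPT1, and without it GNPNAT1 did not pass while the other 5 did.

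**Figure D1:**
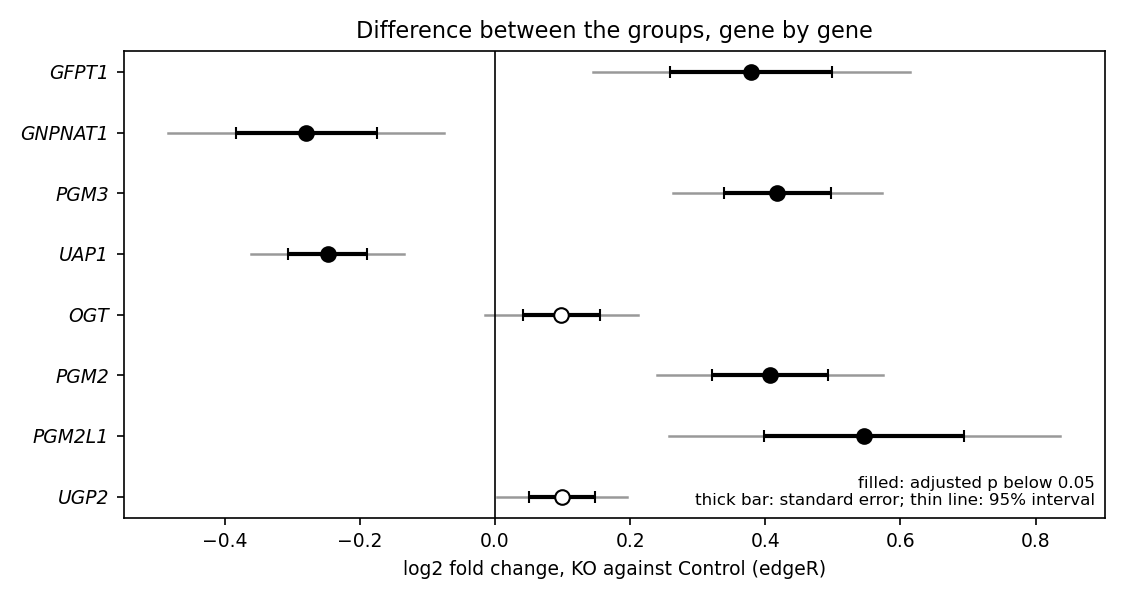
Log2 fold change of KO against Control for the 8 tested genes, from edgeR, with 5 genes of the hexosamine chain above and PGM2, PGM2L1 and UGP2 below. Thick bars are the standard error and thin lines the 95% interval, and filled points passed an adjusted p of 0.05. GFPT1 (0.38) and PGM3 (0.42) lie right of 0 and GNPNAT1 (-0.28) and UAP1 (-0.25) left of it. The calls of GFPT1 and GNPNAT1 were lost in 6 and 14 of 55 alternatives.

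PGM1 (ENSG00000079739) was all but silent in these cells. It had 2 UMIs in total over the 37 libraries, 1 in each of the Control libraries AAGATT and TCTGCA and none in any KO library. The libraries hold 95703198 UMIs together, and the exact Poisson 95% interval of the 2 counts is 0.242 to 7.22, which covers counting error only. A library with no PGM1 UMI allows a level of up to 0.641 CPM in the deepest such library and 5.33 CPM in the shallowest (3 counts), so a lower level was not detectable at this depth. Of all UMIs of PGM1 and PGM2, 0.0201% were PGM1 (exact Clopper-Pearson 95% interval 0.00243 to 0.0724%). PGM1 did not pass the filter on low counts. With no filter it was tested and did not pass (adjusted p = 0.208, edgeR with Benjamini-Hochberg adjustment), at counts that allow no fold change. The gene lies on chromosome 1 from 63593411 to 63660245 on the plus strand (GRCh38). Its neighbours within 500 kb were uneven: ITGB3BP, which starts from the opposite strand across the first bases of PGM1, had 8024 UMIs and ALG6 had 2303, while ROR1 had 8 and FOXD3 had 10.

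The promoters of PGM1, PGM2 and PGM3 are shown because PGM1 was near 0 while PGM2 and PGM3 both rose. Each sequence runs 5′ to 3′ on the strand of the gene and ends at the base before the RefSeq start site (GRCh38.p14). PGM1 spans chr1:63593161-63593410 on the plus strand and PGM2 chr4:37826436-37826685 on the plus strand. Of PGM3 only the 91 bases of chr6:83193266-83193356 on the minus strand are shown, since the first exon of RWDD2A lies beyond them on the other strand. Capitals mark the letters of 7 motifs searched on both strands. These were GGGCGG for the GC box and CCAAT for the CCAAT box. CACGTG stood for the E-box and TATAAA for the TATA box. CCGGAAG stood for ETS factors and TGACG for part of the cyclic AMP response element. CGACCAC was taken as the core of an in vitro ZBTB7A motif.

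PGM1: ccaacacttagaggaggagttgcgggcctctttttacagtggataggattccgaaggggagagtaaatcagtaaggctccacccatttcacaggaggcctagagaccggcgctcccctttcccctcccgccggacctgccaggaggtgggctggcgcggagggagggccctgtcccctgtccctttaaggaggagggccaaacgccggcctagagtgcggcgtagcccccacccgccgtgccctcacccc
PGM2: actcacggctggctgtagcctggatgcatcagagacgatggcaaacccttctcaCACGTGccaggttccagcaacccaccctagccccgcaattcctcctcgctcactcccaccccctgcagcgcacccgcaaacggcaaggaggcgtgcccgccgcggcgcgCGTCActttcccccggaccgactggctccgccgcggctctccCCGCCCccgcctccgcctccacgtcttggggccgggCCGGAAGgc
PGM3: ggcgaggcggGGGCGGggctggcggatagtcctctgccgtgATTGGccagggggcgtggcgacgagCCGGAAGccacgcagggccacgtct

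The 250 bases before the start of PGM1 held none of the 7 motifs, which says only that these letters are not in this window. The ETS letters stood 9 bases before the PGM2 start and 25 bases before the PGM3 start, and 8.5% of 35116 RefSeq windows of the same length hold them. In the GENCODE annotation an exon of each gene reaches into the window, from 37826660 for PGM2 and 83193293 for PGM3. These positions are 26 and 28 bases before the RefSeq start, so both ETS stretches lie inside an annotated exon. The annotated PGM3 gene itself begins further upstream, at 83193936, beyond the window. The PGM2 window also held a CACGTG 196 bases before the start, a motif in 6.3% of windows, a GC box and a TGACG in reverse, which 21.2% of windows hold. PGM3 had a reverse CCAAT 50 bases before its start, found in 32.0% of windows. A GC box was in 8 of the 9 windows, all but PGM1, and in 42.6% of all windows. CGACCAC, in 1.4% of windows, and TATAAA, in 10.7%, were in none of the 9. The windows of the 9 genes were 60.8 to 80.8% G and C, where the median of all windows was 58.0%, and PGM1 with 64.4% and 14 CpG had the fewest CpG of the 9. A match is a description of letters and not a bound site, and a missing match does not show that no ZBTB7A binds. The study reports PGM2 and PGM3 as ZBTB7A targets from public chromatin immunoprecipitation sequencing of ZBTB7A in K562. Those binding data were not examined here.

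PGM2 (ENSG00000169299; chromosome 4, 37826660 to 37862937, plus strand) was the most abundant phosphoglucomutase. Its level was 6.31 to 6.86 log2 CPM in Control libraries with a median of 6.48 (64 to 424 UMIs), and 6.09 to 7.39 with a median of 6.91 in KO libraries (129 to 486 UMIs). The lowest KO value was the library labelled KO with barcode GGCCAC, below every Control library, while 16 of 26 KO libraries were above the highest Control library. That highest Control library was GTTTAT, the shallowest of all. In CPM the means were 90.6 ± 9.78 (SD, n = 11) and 119.6 ± 22.5 (SD, n = 26). The log2 fold change was 0.41 with a standard error of 0.09 (adjusted p = 2.86e-04, edgeR with Benjamini-Hochberg adjustment), and a two-sided permutation test of the means gave p = 0.00033. The call held under all 55 alternatives, between 0.34 and 0.49.

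PGM2L1 (ENSG00000165434; chromosome 11, 74330316 to 74398433, minus strand) had the largest log2 fold change of the 8 genes and the fewest counts. Control libraries had 2 to 84 UMIs and 2.13 to 4.49 log2 CPM, with a median of 3.91. KO libraries had 24 to 88 UMIs and 3.72 to 5.38 log2 CPM, with a median of 4.38. The ranges overlap, with 10 of 26 KO libraries above the highest Control library and none below the lowest, which was GTTTAT with its 2 UMIs. The log2 fold change was 0.55 with a standard error of 0.15 (adjusted p = 0.00385, edgeR with Benjamini-Hochberg adjustment; permutation p = 0.00021). Without the 6 Control libraries of C1, in which PGM2L1 was lower than in C2, it was 0.28 and did not pass (adjusted p = 0.295, edgeR with Benjamini-Hochberg adjustment), and without the 5 Control libraries of C2 and the library labelled KO it was 0.87. Over all 55 alternatives the adjusted p from edgeR, limma-voom or DESeq2 ran from 7.19e-04 to 0.295.

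Of the UMIs of PGM1, PGM2 and PGM2L1, PGM2 held 79.5 to 97.0% in Control libraries (median 86.2%) and 80.4 to 89.6% in KO libraries (median 83.9%). The log2 ratio of PGM2L1 to PGM2 within a library was -2.77 ± 0.77 in Control and -2.46 ± 0.27 in KO libraries (SD, n = 11 and 26). Its difference of 0.31 did not pass (permutation p = 0.0714, adjusted 0.107 over 3 ratios). Without the Control library GTTTAT, which has 2 PGM2L1 UMIs, the difference was 0.12 (permutation p adjusted to 0.357), and it was 0.39 without the Control library ATGAAT and 0.38 without the Control library TACTAT, with permutation p adjusted to 0.0324 and 0.0488. Its direction turned without Control group C1: it was -0.18 without C1 and 0.71 without C2 (permutation p adjusted to 0.215 and 0.0022), in a range of 0.0022 to 0.365 over 48 alternatives.

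PGM5, the remaining member of the family, had 5 UMIs in all libraries together and did not pass the filter on low counts. Of the 5 phosphohexomutases 3 were tested and rose, beside 17.7% of all genes.

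**Figure D2:**
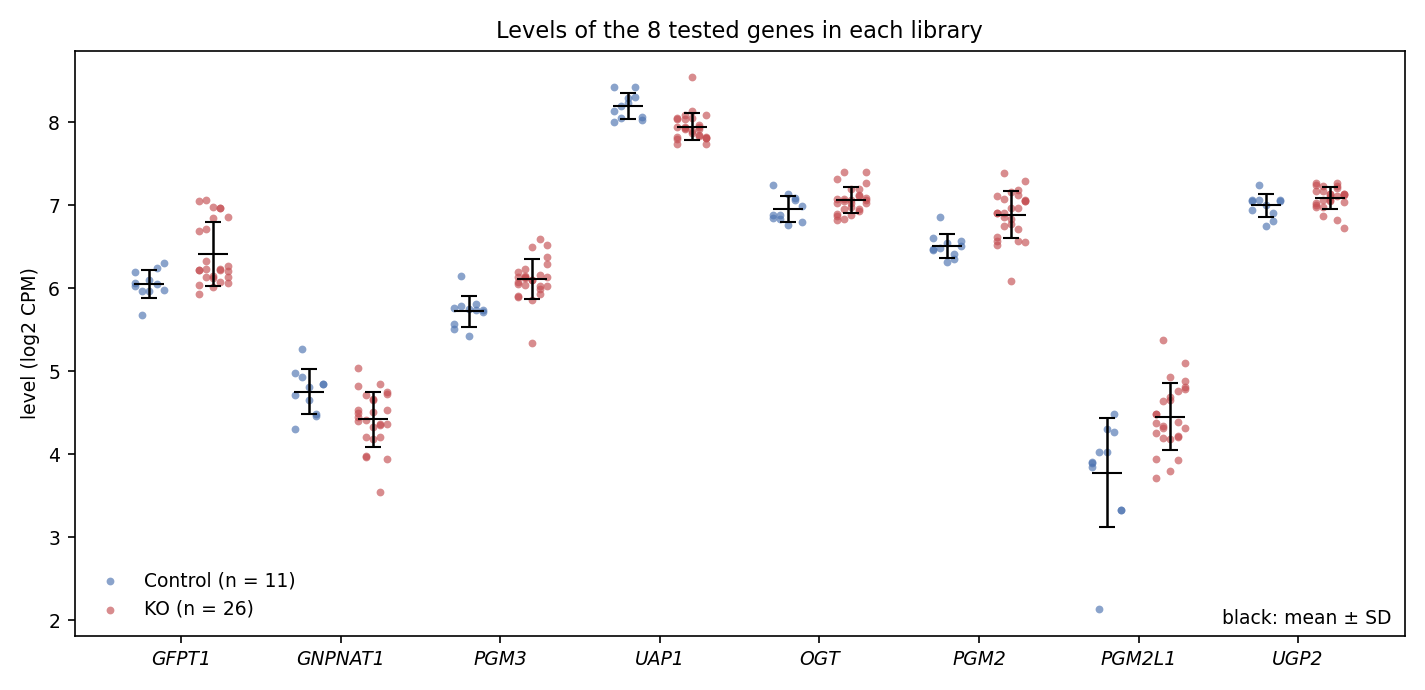
Level in log2 CPM of each of the 8 tested genes in each library, 11 Control (blue) and 26 KO (red), with mean ± SD in black. UAP1 is the highest gene in every library; the KO points of PGM2, PGM3 and GFPT1 extend above the Control points and those of UAP1 below them, with overlap in every gene.

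GFPT1 (ENSG00000198380; chromosome 2, 69319780 to 69387250, minus strand) opens the hexosamine pathway and is known as its rate-limiting enzyme. Its level was 5.68 to 6.30 log2 CPM in Control libraries (median 6.05, 28 to 340 UMIs) and 5.93 to 7.06 in KO libraries (median 6.22, 89 to 396 UMIs). The KO libraries were split: 10 of 26 were above the highest Control library and 16 within the Control range. In K4 all 5 libraries, at 6.69 to 6.97, and in K5 all 4, at 6.85 to 7.06, were above every Control library, whereas K1 at 6.01 to 6.22, K2 at 6.07 to 6.24 and 5 of the 6 libraries of K3 were not. The log2 fold change was 0.38 with a standard error of 0.12 (adjusted p = 0.013, edgeR with Benjamini-Hochberg adjustment; permutation p = 0.00469). It did not pass under 6 of the 55 alternatives, among them AT-rich barcodes alone, where it was 0.22 (adjusted p = 0.157, edgeR with Benjamini-Hochberg adjustment), and without K4, where it was 0.26. The adjusted p ran from 0.00262 to 0.174 over all alternatives. GFPT2, its paralog, had 17 UMIs in all libraries and was listed at 0 in 25 of 37.

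GNPNAT1 (ENSG00000100522; chromosome 14, 52775193 to 52791668, minus strand) acetylates glucosamine 6-phosphate. Its level was 4.31 to 5.27 log2 CPM in Control libraries (median 4.81, 21 to 120 UMIs) and 3.55 to 5.04 in KO libraries (median 4.43, 16 to 119 UMIs). No KO library exceeded the highest Control library, again GTTTAT, and 7 of 26 were below the lowest. The log2 fold change was -0.28 with a standard error of 0.10 (adjusted p = 0.0343, edgeR with Benjamini-Hochberg adjustment; permutation p = 0.00544). This call was the weakest of the 6: 14 of 55 alternatives lost it, with adjusted p from 0.00761 to 0.754 (edgeR, limma-voom or DESeq2). Leaving out GTTTAT is counted among the 14 both as the shallowest library and where each library was left out in turn. Single Control libraries decided it: the value was -0.25 and did not pass without AAAGTT, without AAGATT or without GTTTAT, -0.26 without TTAATC, and -0.27 without CGGTGG or without TACTAT. Without C1 it was -0.08.

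PGM3 (ENSG00000013375; chromosome 6, 83147324 to 83193936, minus strand), the mutase of the pathway, had the smallest adjusted p of the 8 tested genes. Its level was 5.42 to 6.15 log2 CPM in Control libraries (median 5.74, 39 to 251 UMIs) and 5.34 to 6.59 in KO libraries (median 6.11, 76 to 268 UMIs). As for PGM2, the highest Control library was GTTTAT and the lowest KO library was GGCCAC. Above the highest Control library were 8 of 26 KO libraries, and the median of every KO expression group was above both Control medians. The log2 fold change was 0.42 with a standard error of 0.08 (adjusted p = 6.9e-05, edgeR with Benjamini-Hochberg adjustment; permutation p = 5e-05). The call held under all 55 alternatives, between 0.35 and 0.47. The last exon of PGM3 overlaps DOP1A on the opposite strand, which had 365 UMIs and itself rose (log2 fold change 0.51), and whether counting used the strand is not given in the sources used here, so reads of the 2 genes there cannot be told apart. RWDD2A, which starts on the other side of the PGM3 promoter, had a log2 fold change of 0.28 with a standard error of 0.12 (adjusted p = 0.0684, edgeR with Benjamini-Hochberg adjustment).

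UAP1 (ENSG00000117143; chromosome 1, 162561722 to 162601240, plus strand) makes UDP-GlcNAc and was the most abundant of the 9 genes in every library. Its level was 8.003 to 8.43 log2 CPM in Control libraries (median 8.19, 162 to 1424 UMIs) and 7.73 to 8.54 in KO libraries (median 7.93, 292 to 1003 UMIs). Below the lowest Control library were 18 of 26 KO libraries, and the single one above the highest was the library labelled KO with barcode GGCCAC, at 8.54. The means were 294 ± 31.6 CPM in Control and 247.5 ± 31.6 CPM in KO libraries (SD, n = 11 and 26). The log2 fold change was -0.25 with a standard error of 0.06 (adjusted p = 9.24e-04, edgeR with Benjamini-Hochberg adjustment; permutation p = 0.00015). The Control libraries were not alike: those of C2 lay above those of C1, and the log2 fold change was -0.38 without C1 and -0.14 without C2, passing in both (adjusted p = 3.6e-04 and 0.0402, edgeR with Benjamini-Hochberg adjustment), with adjusted p of 1.05e-05 to 0.0402 over all alternatives. UAP1L1, its paralog, had 240 UMIs in all libraries and did not pass the filter on low counts.

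OGT (ENSG00000147162; X chromosome, 71533087 to 71575892, plus strand), which uses UDP-GlcNAc on intracellular proteins, was 6.76 to 7.25 log2 CPM in Control libraries (median 6.88, 63 to 600 UMIs) and 6.82 to 7.40 in KO libraries (median 7.05, 177 to 497 UMIs). The difference was 0.10 with a 95% interval of -0.01 to 0.21 on the log2 scale (adjusted p = 0.189, edgeR with Benjamini-Hochberg adjustment). The interval reaches from slightly below 0 to a rise of that size, so equal levels were not shown. It was 0.19 and passed without C2 (adjusted p = 0.0429, edgeR with Benjamini-Hochberg adjustment), in a range of adjusted p from 0.0429 to 0.983. OGA, which removes O-GlcNAc, rose by 0.20 on the log2 scale with a standard error of 0.06 (adjusted p = 0.00698, edgeR with Benjamini-Hochberg adjustment), from 6.66 ± 0.11 to 6.85 ± 0.18 log2 CPM (SD, n = 11 and 26), and 15 of 26 KO libraries exceeded the highest Control library. The log2 ratio of OGT to OGA within a library was 0.30 ± 0.13 in Control and 0.21 ± 0.17 in KO libraries (SD, n = 11 and 26), a difference that did not pass (permutation p = 0.11, adjusted 0.11 over 3 ratios).

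UGP2 (ENSG00000169764; chromosome 2, 63840952 to 63891562, plus strand), which turns glucose 1-phosphate into UDP-glucose, was 6.75 to 7.25 log2 CPM in Control (median 7.05, 84 to 585 UMIs) and 6.72 to 7.27 in KO libraries (median 7.11, 161 to 558 UMIs). Its log2 fold change was 0.10 with a 95% interval of 0.003 to 0.20, which did not pass after adjustment (adjusted p = 0.114, edgeR with Benjamini-Hochberg adjustment). It passed with library size alone as scaling, at 0.13, and without K2, also at 0.13 (adjusted p = 0.0434 and 0.0222, edgeR with Benjamini-Hochberg adjustment), in a range of adjusted p from 0.0222 to 0.978. With AT-rich barcodes alone the log2 fold change of UGP2 was 0.005.

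The order of the mean levels in Control libraries was also that in KO libraries, except at the low end. On the log2 CPM scale of captured molecules UAP1 came first in 11 of 11 Control and 26 of 26 KO libraries, followed by UGP2 and OGT. UGP2 was above OGT in 7 of 11 Control and 17 of 26 KO libraries, with mean differences of 0.04 ± 0.25 and 0.02 ± 0.20 log2 CPM (SD, n = 11 and 26), which are within the spread. OGT was above PGM2 in 10 of 11 Control and 19 of 26 KO libraries, PGM2 above GFPT1 in 11 and 23, GFPT1 above PGM3 in 10 and 21, and PGM3 above GNPNAT1 in 11 and 26. At the low end GNPNAT1 was above PGM2L1 in 10 of 11 Control but 12 of 26 KO libraries, with mean differences of 0.98 ± 0.87 and -0.03 ± 0.58 log2 CPM (SD, n = 11 and 26).

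Within a library, the log2 ratio of GNPNAT1 to GFPT1, the second to the first step of the pathway, was -1.32 ± 0.41 in Control and -2.02 ± 0.60 in KO libraries (SD, n = 11 and 26). It ranged from -1.92 to -0.41 in Control and from -3.12 to -1.19 in KO libraries, and 13 of 26 KO libraries were below the lowest Control library. The difference of -0.70 passed a permutation test (p = 0.00112, adjusted 0.00336 over 3 ratios) and ran from -0.95 to -0.42 over 48 alternatives. Without Control group C1 it was -0.42 and did not pass (permutation p adjusted to 0.215, in a range of 5.1e-04 to 0.215), and it passed in the other 47. This ratio does not depend on the scaling between libraries. It joins 2 genes already called in opposite directions in the same libraries, so its result is not separate from those calls. GFPT1 was above every Control library in all libraries of K4 and K5 and of no other expression group. The ratio was not tested by expression group. The 5 other ratios that had been planned need PGM1, GFPT2 or UAP1L1 and were not computed at these counts.

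Across the expression groups the 9 genes did not vary in one common way. For PGM2, PGM3 and GFPT1 the medians of all 5 KO expression groups were above those of both Control groups, as for 11.8% of all genes tested; no gene of the 9 had all KO medians below both, which 11.2% of all genes did. PGM2 medians were 6.41 and 6.49 log2 CPM in the Control groups and 6.57 in K3, 6.86 in K4, 6.87 in K1, 7.10 in K2 and 7.14 in K5. In K3 5 of 6 libraries were thus within the Control range of PGM2, and in K2 and K5 all 10 were above it. PGM3 medians were 5.73 and 5.75 in the Control groups and 6.02 to 6.33 in the KO groups, with K2 the highest and K5 next. GFPT1 had another order, with K4 and K5 at 6.96 and 6.95 and K1, K2 and K3 at 6.13 to 6.21, close to the Control medians, the higher of which was 6.10. The C2 medians in this paragraph leave out the library labelled KO with barcode GGCCAC. For PGM2L1 3 of 5 KO medians were then above both Control medians. With that library included, the C2 median of PGM2L1 was 4.15 in place of 4.27, and all 5 KO medians, at 4.21 to 4.86, were above both. For UAP1 4 were below both, the exception being K5 at 8.06 beside 8.06 in C1, and for GNPNAT1 3 were below both. OGT was highest in K5, at 7.35, with the other KO medians at 6.86 to 7.08 beside 6.86 and 7.09 in Control.

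**Figure D3:**
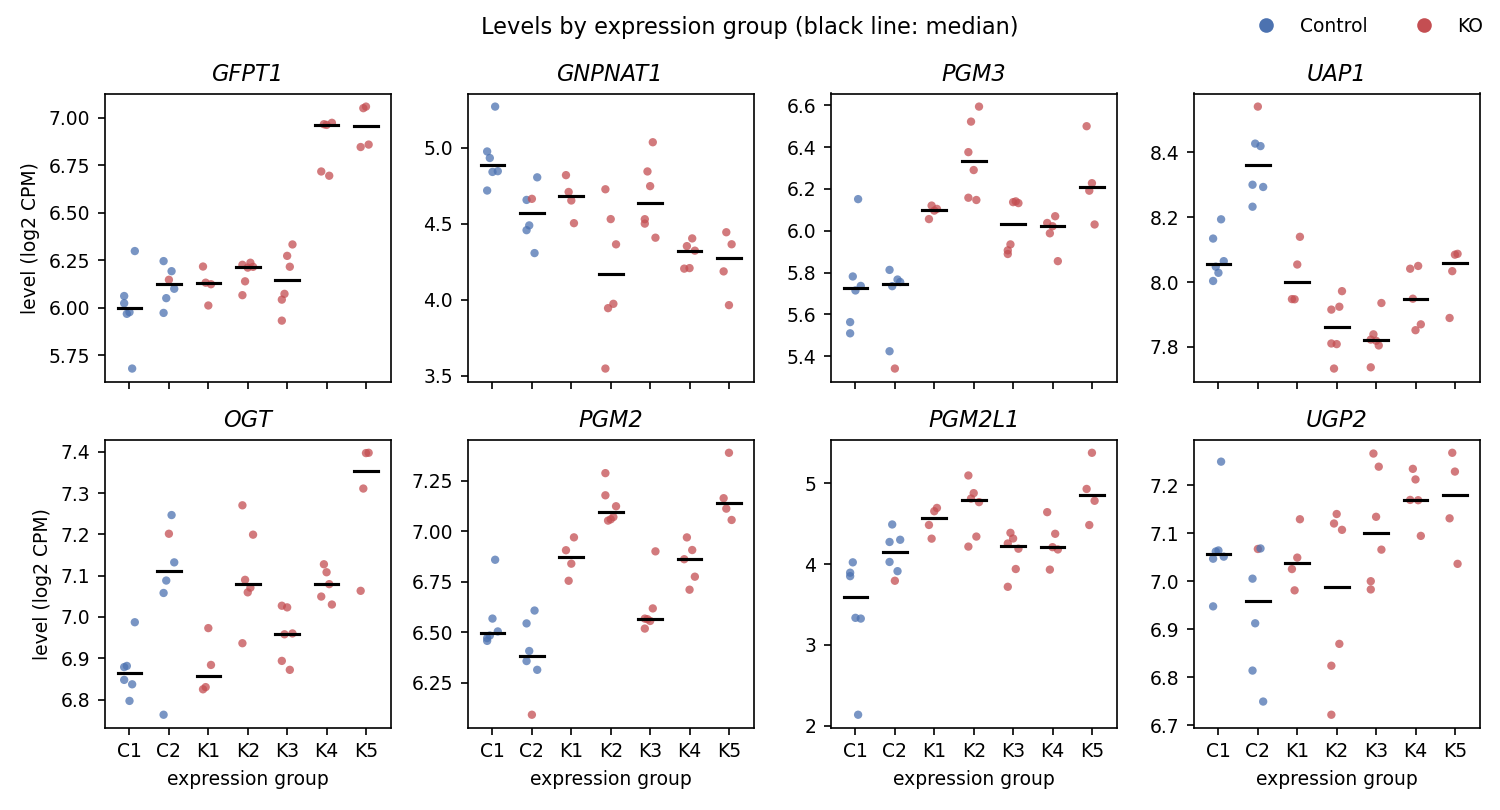
Level in log2 CPM of the 8 tested genes in the expression groups C1 and C2 (Control, blue) and K1 to K5 (KO, red); each point is a library, black lines are medians, and the axis of each panel has its own range. The red point in C2 is the library labelled KO with barcode GGCCAC, which the median lines of C2 include. GFPT1 is highest in K4 and K5, PGM2 highest in K2 and K5, and UAP1 higher in C2 than in C1.

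The SD of the 8 genes on the log2 CPM scale was 0.14 to 0.40 among KO libraries and 0.14 to 0.65 among Control libraries, lowest for UGP2 and highest for PGM2L1 in both. A test of whether the spread differed between KO and Control passed for 0 of the 8 genes (permutation test with Benjamini-Hochberg adjustment over the 8, smallest adjusted p = 0.27). The unadjusted permutation p was under 0.05 for PGM2 alone, at 0.0435, where the SD was 0.29 in KO and 0.15 in Control libraries.

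Because libraries cluster, pairs of the 8 genes were correlated only within C1, K2 and K3, each of 6 libraries. The smallest p that an exact permutation test of 6 libraries can give is 0.00139, or 0.117 when multiplied by the 84 relations, so no single relation could pass after adjustment. The smallest adjusted p was 0.359 for Pearson r and 0.847 for Spearman rho (exact permutation tests), and 11 relations had an unadjusted p of Pearson r under 0.05. After the group mean was subtracted, the genes most like each member over 37 libraries, among 8604 genes with at least 10 CPM, were found as a description that shares depth and expression group. Most like PGM2 were MAGED2 (r = 0.83), SLC2A1, the glucose transporter GLUT1 (r = 0.80), and ENSG00000250501 (r = 0.78). MAGED2 (r = 0.76) was also among the 3 nearest to PGM3, after the actin-bundling LCP1 (r = 0.78) and VPS37C (r = 0.77). GFPT1 had the closest companions, CCPG1, a receptor for autophagy of the endoplasmic reticulum (r = 0.90), NES (r = 0.89) and FTL, the ferritin light chain (r = 0.88). PGM2L1 was nearest to MTURN (r = 0.78), GALNT6 (r = 0.78) and SETD5 (r = 0.75). GNPNAT1 was nearest to CYC1, MRPL34 and RPL7L1 (r = 0.69 to 0.73) and UAP1 to TEX15, DNALI1 and RAB8B (r = 0.69 to 0.75). UGP2 was nearest to STRBP, DUSP3 and FIP1L1 (r = 0.67 to 0.77), and OGT to MARK3, AHCYL1 and GNA12 (r = 0.72 to 0.80).

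SLC2A1 is the entry point of glucose and rose from 7.76 ± 0.11 to 8.72 ± 0.44 log2 CPM (SD, n = 11 and 26), a log2 fold change of 1.03 (adjusted p = 5.37e-07, edgeR with Benjamini-Hochberg adjustment). Its level, like that of PGM2, differed widely among KO libraries, from 7.76 to 9.30 log2 CPM.

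Of 82 further genes in pathways next to these, 77 were in the table and 62 were tested; 17 rose, 10 fell and 35 did not pass, where 17.7% of all genes rose and 16.2% fell, and their median log2 fold change was 0.02. A list of 7 further hexosamine genes held the paralogs GFPT2 and UAP1L1 and genes of amino sugar salvage and breakdown. Of the 7, 4 were tested and 3 of them rose, beside 17.7% of all genes. NAGK, the kinase that salvages free N-acetylglucosamine, rose by 0.49, AMDHD2, which removes the acetyl group again, by 0.51, and GNPDA1, which turns glucosamine 6-phosphate back to fructose 6-phosphate, by 0.49 on the log2 scale (standard errors 0.11, 0.11 and 0.09; adjusted p = 5.84e-04, 3.67e-04 and 8.74e-05, edgeR with Benjamini-Hochberg adjustment). Between 19 and 21 of 26 KO libraries exceeded the highest Control library for each of these 3 genes. GNPDA2 did not pass, with -0.08, and GFPT2, UAP1L1 and RENBP did not pass the filter on low counts.

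Among 15 genes of UDP-sugar metabolism and transport, 5 rose, 2 fell and 8 did not pass, beside 17.7% of all genes that rose and 16.2% that fell. UGDH, which makes UDP-glucuronic acid, rose by 0.23, and the nucleotide sugar transporters SLC35A2, SLC35A3, SLC35D2 and SLC35B4 rose by 0.16 to 0.33 on the log2 scale. The galactose enzymes GALK1 (-0.38) and GALM (-0.58) fell (adjusted p = 0.00517 and 7.07e-04, edgeR with Benjamini-Hochberg adjustment), with 18 and 21 of 26 KO libraries below the lowest Control library. GALT and GALK2 were among those that did not pass.

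Of 22 glycogen genes 14 were tested, and isoforms of the same step differed in direction. PYGB, a glycogen phosphorylase, rose by 0.83 and PYGL, another, fell by 0.37. GYG2, a glycogenin, rose by 0.71 and GYG1, another, fell by 0.48 on the log2 scale (adjusted p = 6.3e-04, 0.0163, 4.68e-04 and 2.01e-05, edgeR with Benjamini-Hochberg adjustment). PPP1R3B, a glycogen-targeting phosphatase subunit, fell by 0.47. GYS1, the synthase, and GBE1, the branching enzyme, did not pass, with -0.04 and -0.25.

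Of 7 tested genes of the mannose and GDP-sugar pathways only PMM1, a phosphomannomutase, passed, where 33.8% of all genes did, with a log2 fold change of -0.51, while PMM2 had 0.02. In sialic acid synthesis NANP rose by 0.34 and NANS fell by 0.18. Of 11 tested enzymes that use UDP-GlcNAc, 3 rose and 3 fell, beside 17.7% and 16.2% of all genes. DPAGT1, which starts the N-glycan precursor, fell by 0.42 (standard error 0.06, adjusted p = 8.81e-07, edgeR with Benjamini-Hochberg adjustment) and 20 of 26 KO libraries were below the lowest Control library. ALG14, which takes part in the next step, fell by 0.38 and MGAT3, which adds the bisecting branch, by 0.52. MGAT5, which adds a branch of complex N-glycans, rose by 0.56, EXT2, a heparan sulfate polymerase, by 0.27, and HAS1, a hyaluronan synthase, by 2.93. HAS1 was low, with 0 to 6 UMIs in a Control library and 0 to 42 in a KO library, so the size of its fold change rests on small counts.

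**Figure D4:**
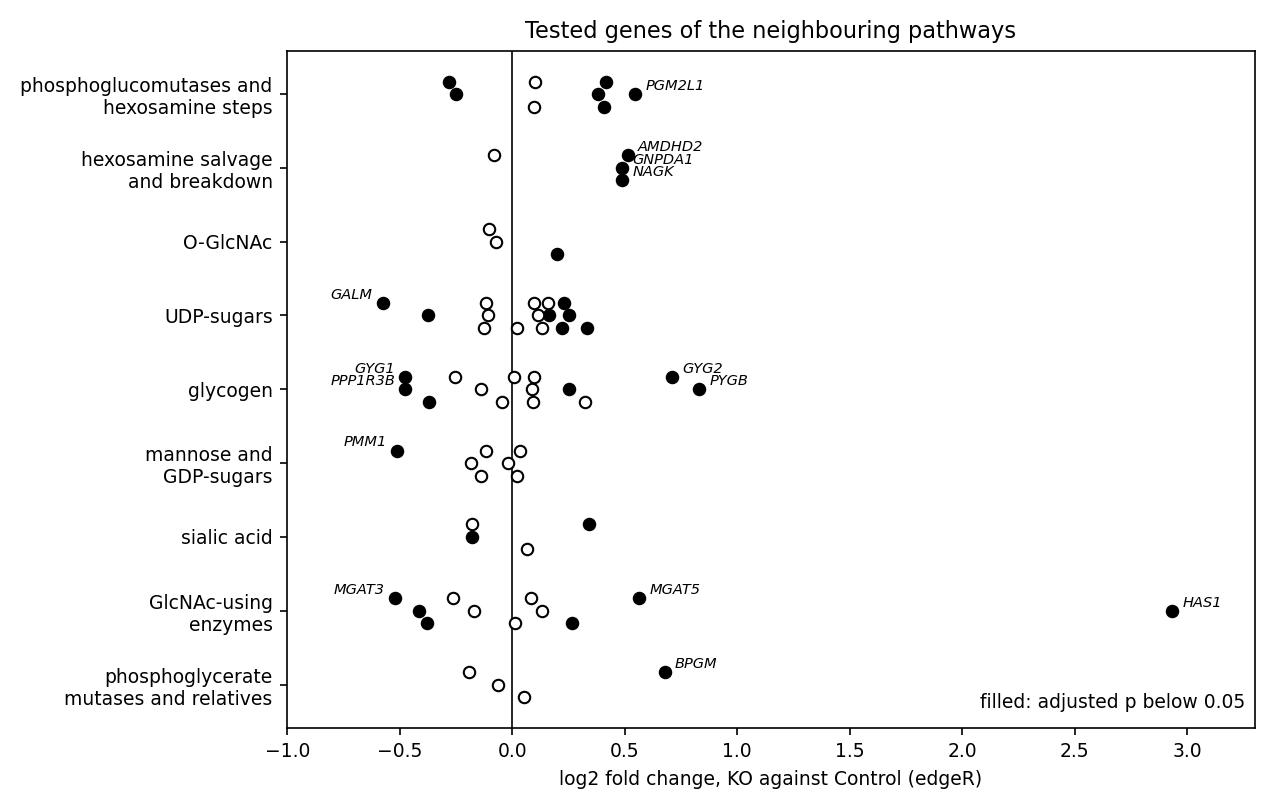
Log2 fold change of KO against Control (edgeR) for every tested gene of the 9 genes and the neighbouring pathway lists, 1 point per gene; filled points passed an adjusted p of 0.05 over all genes, and those past 0.45 in size are named. NAGK, AMDHD2 and GNPDA1 lie together near 0.5, and the glycogen genes lie on both sides of 0.

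Of the phosphoglycerate mutases, whose names resemble those of the phosphoglucomutases, PGAM1 of glycolysis differed by 0.05 on the log2 scale and the mitochondrial PGAM5 by -0.07, and neither passed (adjusted p = 0.562 and 0.386, edgeR with Benjamini-Hochberg adjustment). PGAM4 had 5 UMIs in all libraries and PGAM2 was not analysed here. In this list BPGM, the erythroid enzyme that makes 2,3-bisphosphoglycerate, passed alone, with a log2 fold change of 0.68 and a standard error of 0.10 (adjusted p = 1.59e-06, edgeR with Benjamini-Hochberg adjustment). Its level was 4.70 to 5.54 log2 CPM in Control libraries and 5.45 to 6.69 in KO libraries, and 24 of 26 KO libraries exceeded the highest Control library.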

How the data were processed

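Bulk SCRB-seq data of K562 (26 KO, 11 Control) were compared. Mapping to hg38 by the authors used STAR (2.6.0a per the submitters' processing notes) and UMI counting used zUMIs (version not given in the sources used here) with the Ensembl GRCh38.84 genes, and the authors deposited raw UMI counts. Columns were matched to labels by barcode. Symbols and positions came from GENCODE release 44, which paired 31323 of 32055 identifiers, and promoters from RefSeq, which held all 9 genes.

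For the test edgeR 4.0.16 was run in R 4.3.3 (filterByExpr defaults, TMM, robust quasi-likelihood test, Benjamini-Hochberg adjustment over 10661 genes). Genes with an adjusted p below 0.05 passed; the common biological coefficient of variation was 0.154. Permutation tests were two-sided with 100000 resamples, and ratios had 0.5 added to each count. The fit was checked on simulated counts with known changes. The expression groups were chosen after seeing the data, from genes averaging at least 30 CPM.

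The members, gene lists and tests were chosen with earlier results of these data known, and the study itself names PGM2 and PGM3 from these libraries, so no list is independent evidence of its direction. Named were the 9 genes, every gene of the lists that passed, except where not reported here, and the 3 genes most like each member. Names outside this rule (RWDD2A, DOP1A, the PGM1 neighbours, untested paralogs and unchanged isoforms) were chosen after values were seen. In lists where genes are counted only, the others did not pass or were too low. Alternatives were RLE factors, library size alone, limma-voom (limma 3.58.1), DESeq2 1.42.0, other filters and prior counts, barcode class, thinning, and leaving out libraries or expression groups. The labels carry no replicate number. STBD1, SLC35A1, MGAT2, HAS2, PGAM2, HBE1, MS4A1, MPO and ELANE were not analysed here.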

Additional observations from a re-analysis of the deposited data

How the results depend on the processing

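Of the 55 alternatives to the comparison, PGM2, PGM3 and UAP1 passed under all, and none of the 8 tested genes reversed. The number of the 9 genes that passed was 6, fell to 3 without expression group C1 (edgeR, chosen after seeing the data), and was 5 to 6 when each library was left out in turn. GFPT1 was lost in 6 alternatives (AT-rich barcodes, barcode class as covariate, thinning, and without C1, C2 or K4), GNPNAT1 in 14 and PGM2L1 in 1. Called genes, which also passed an absolute log2 fold change of 0.5, numbered 1085 of 10661 tested. They were 1720 of 32055 with no filter on low counts and 672 of 8588 where genes had to average 10 CPM. After thinning every library to the smallest total they were 597 of 7754. What made these counts differ was not tested. Leaving out each library in turn gave 1044 to 1126 called genes. The ratios that passed numbered 1, 1 to 2 when each library was left out (2 without ATGAAT or TACTAT), 0 without C1 and 2 without C2 (expression groups chosen after seeing the data); without C1 the difference in the PGM2L1 to PGM2 ratio turned from 0.31 to -0.18. No spread test passed in any of its 40 alternatives. The permutation test passed the same number of genes, 6, with prior counts of 0.5 and 5. The relations have no informative alternative: GGCCAC is in none of the 3 expression groups used, and leaving out GTTTAT or the GC-rich barcodes leaves fewer libraries per expression group and was not run. PGM1, GFPT2 and UAP1L1 did not pass the filter on low counts at this depth, and whether greater depth would change that was not tested. GFPT1 and GNPNAT1 did not pass after thinning.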
